A study of Mus musculus with 4 samples.

Results

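Human CD8 T cells that carried GZMK transcripts without the transcripts of a full cytotoxic granule were examined in humanised mice after spinal cord injury (SCI). A human cell was taken as a member when it held at least 1 unique molecular identifier (UMI, 1 counted transcript) of CD3D, CD3E or CD3G, at least 1 of CD8A or CD8B and at least 1 of GZMK, with GZMH, GNLY, GZMB, FOXP3 and MS4A1 all at 0. The members were selected on their own readout, so the levels of these genes are a description of the gate and not a finding. Of 17842 human cells in 4 libraries, 2145 met the rule, of which 530 came from the naïve blood library, 487 from the sham, 1122 from the SCI blood and 6 from the SCI cord. The libraries were droplet-based 3' single-cell RNA sequencing of sorted human CD45+ cells, with 1 library per condition. The SCI libraries were pooled from several mice, and the number of mice behind the naïve and sham libraries was not given in the sources used here. All hosts were huNSG-SGM3 mice, a strain that carries NOD.Cg-Prkdcscid with the IL2rgtm1Wjl allele and so lacks lymphocytes of its own. The transgene Tg(CMV-IL3,CSF2,KITLG)1Eav/MloySzJ gives these mice human IL3, CSF2 and KITLG from a CMV promoter. They were irradiated as pups and engrafted with CD34+ cells of human cord blood. The label gives an age of 15 weeks for every library. Naïve mice had no surgery, sham mice had a T9 laminectomy, and SCI mice had a T9 spinal cord injury, with collection at 7 dpi (days post-injury or surgery). The naïve and sham hosts were male, whereas the SCI libraries pooled male and female hosts, so host sex and SCI cannot be told apart.

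GZMK encodes granzyme K, a serine protease of lymphocyte granules. In human blood it marks a pool of CD8 T cells that have met antigen but lack much of the killing machinery of terminal effectors, such as granzyme B, granulysin and perforin. These cells commonly retain receptors for entry into lymph nodes and survival cytokines, and they can be recruited to inflamed tissue. NT5E encodes CD73, the surface enzyme that makes adenosine from AMP, and NELL2 encodes a secreted glycoprotein found in naïve and memory T cells. Type I interferon genes, which figure in several of the results, encode antiviral effectors that are induced together by interferon signalling.

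The 4 libraries held 8124, 6962, 7513 and 231 cell barcodes in the naïve, sham, SCI blood and SCI cord libraries, of which 6592, 4897, 6226 and 127 had over 50% human UMIs and at least 500 human genes. The median member held 3552 human UMIs in the naïve library, 5037 in the sham, 4476.5 in the SCI blood and 8097 in the cord library, so that depth differed between the libraries. At most 10 barcodes were shared by a pair of libraries, and 1 of them was a member in both naïve and sham blood. With a single library per condition there is no replicate error and no test between conditions, and the 95% intervals given cover counting error only. Levels are CPM, the count of a gene summed over the members and scaled to a common library total, and ratios of CPM are given on the log2 scale. A gene was counted as higher or lower where its ratio reached 1.5-fold, provided that the libraries compared held 100 or more of its counts together.

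The 4 markers that name the population were found to unequal extents. CD8B, which the gate used together with CD8A, had a UMI in 77.7%, 86.0% and 83.0% of members of naïve, sham and SCI blood, against at most 0.455% of B cells, which should lack it and had median depths of 3626.5, 5759 and 4909 UMIs. NELL2, which the gate did not use, had a UMI in 38.9%, 55.4% and 45.4% of members and in at most 0.531% of B cells. NT5E had a UMI in 10.0%, 25.5% and 17.3% of members, and in 1.79%, 2.30% and 1.59% of B cells. After each cell was thinned to 1000 human UMIs, NT5E was found in 3.21% (1.88 to 5.10), 5.75% (3.85 to 8.20) and 4.46% (3.33 to 5.83) of members, intervals that overlapped, against 0.600%, 0.531% and 0.456% of B cells. NT5E therefore marked a minority in every library at this depth. Receptors for homing and survival were common in the same cells. CCR7, the receptor that guides T cells into lymph nodes, had a UMI in 83.2%, 92.6% and 87.0% of members, beside 28.9%, 33.3% and 29.9% of B cells, which also use it. IL7R, a receptor for the survival cytokine IL-7, had one in 79.2%, 92.6% and 90.8% of members and in at most 2.48% of B cells.

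Markers of other cell types were found in the members, and not evenly over the libraries. Plasma cell markers, immunoglobulin genes aside, had a UMI in 42.6%, 48.3% and 50.8% of naïve, sham and SCI blood members, on counts as deposited. The largest counts of the whole list were those of XBP1 and MZB1 in sham and SCI blood, and of IGKC and IGHM in naïve blood. For B cell markers the shares were 20.2%, 26.9% and 29.6%, and for monocyte markers 6.42%, 8.83% and 5.17%. Of 10 monocyte markers, 10, 6 and 9 had a count in the members of naïve, sham and SCI blood, with summed levels of 443, 27.1 and 106 CPM. The 9 plasma cell markers summed to 1202, 224 and 284 CPM and the 10 B cell markers outside the gate to 406, 117 and 141 CPM, so that both were highest in naïve blood. The 10 basophil or mast cell markers summed to 10.2, 170 and 111 CPM. The 8 erythroid and platelet markers were at or near 0, at 0, 1.13 and 1.73 CPM. Markers of unconventional T cells were present in part. The 10 MAIT cell markers summed to 293, 306 and 349 CPM, mostly from KLRB1 and DPP4, while SLC4A10 was at 0 in sham and SCI blood. The 7 gamma delta markers summed to 658, 397 and 465 CPM, with TRDV2 and TRDV3 at 0 in all 3 blood libraries. TRGC2 and TRGC1 had the largest counts among them in each blood library. The 5 CD4 helper markers outside the gate summed to 69.5, 43.5 and 37.4 CPM.

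The population made up a larger share of human cells in SCI blood than in the other blood libraries. Members were 8.04% (7.39 to 8.72) of human cells in the naïve library, 9.94% (9.12 to 10.8) in the sham, 18.0% (17.1 to 19.0) in the SCI blood and 4.72% (1.75 to 10.0) in the SCI cord library, with exact binomial intervals. The SCI share was 1.81 times the sham share and 2.24 times the naïve share, and the sham share 1.24 times the naïve share. The gate depends on depth by construction, since its conditions are on single transcripts. When the gate was applied to cells thinned to 1000 UMIs, the shares were 3.36%, 3.41%, 6.49% and 1.57%, and the SCI share was 1.90 times the sham share while sham and naïve blood stood at a ratio of 1.02. Over the alternatives tried, the ratio of SCI to sham ranged from 1.75 to 1.90 and that of SCI to naïve from 1.93 to 2.39.

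Composition around the members differed as well. CD8 T cells as a whole were 21.0%, 24.2% and 35.2% of T cells in naïve, sham and SCI blood, and members were 52.8%, 49.1% and 62.2% of those CD8 T cells. CD8 T cells with at least 1 UMI of GZMH, GNLY or GZMB were taken with or without GZMK (cytotoxic CD8 T cells in the text that follows). These 118, 99 and 229 cells were 1.79%, 2.02% and 3.68% of human cells. CD8 T cells with none of the 4 granule genes (granule-negative CD8 T cells) were 4.17%, 6.37% and 5.72%. B cells, 17.7%, 11.5% and 14.1% of human cells, were fewest in sham blood. Such shares sum to a whole, and cell numbers per volume of blood were not used here, so a larger share of 1 class and a smaller number of another cannot be told apart.

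**Figure D1:**
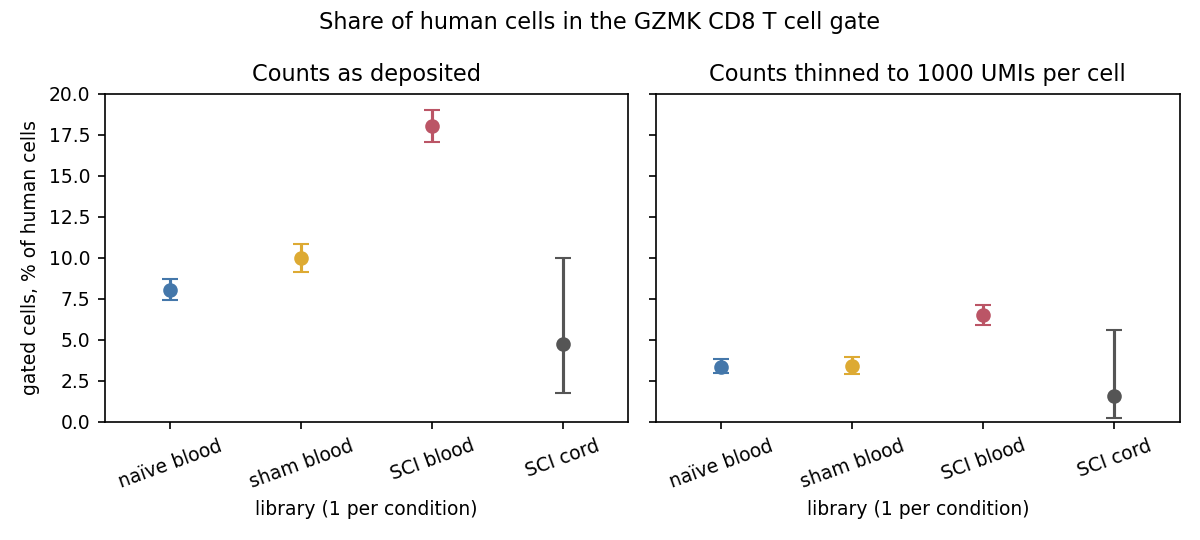
Share of human cells that met the gate (%, y axis) in each of the 4 libraries (x axis), on the counts as deposited (left) and after each cell was thinned to 1000 human UMIs (right). Points are single libraries and bars are exact binomial 95% intervals for counting error only. SCI blood stood at 18.0% and 6.49%, above sham blood at 9.94% and 3.41%.

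Most members were well inside the GZMK threshold. Exactly 1 GZMK UMI was found in 49, 19 and 73 members of naïve, sham and SCI blood, and at least 6 in 374, 383 and 814. Just outside it, 275, 312 and 356 cells met every other condition with GZMK at 0, and these had median depths of 3890, 5938 and 4779.5 UMIs. A further 102, 84 and 159 cells with GZMK were kept out by a GZMH, GNLY or GZMB transcript.

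Members were compared with other T cells of the same library. These ratios were formed within each blood library, and a gene was counted when it passed 1.5-fold in the same direction in all 3. With 3 libraries a sign-flip test cannot give a p below 0.25, so no test was made. Compared with cytotoxic CD8 T cells, 210 of 3693 genes were higher in members (5.69%) and 140 lower (3.79%). Of 17 naïve and memory genes, 11 were higher and none lower, with a median of 1.60, against 0.035 over all genes. Of 11 granule and cytotoxicity genes outside the gate, 1 was higher (GZMM) and 6 were lower, with a median of -1.13. CCR7 stood at 800, 877 and 773 CPM in members of naïve, sham and SCI blood and at 161, 127 and 131 CPM in cytotoxic CD8 T cells, with ratios of 2.30, 2.78 and 2.55. SATB1, a chromatin organiser of early T cells, gave ratios of 2.35, 2.96 and 2.58, and BCL2, which protects cells from apoptosis, 2.51, 2.71 and 2.79. PTGER2, a receptor for prostaglandin E2, stood at 179, 264 and 311 CPM against 29.2, 35.3 and 51.6 CPM. All 3 libraries showed the same order, as the rule that picked these genes required. STAG3, PASK, TTC9 and TRABD2A completed the 8 genes with the highest ratios.

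The genes lower in members than in cytotoxic CD8 T cells included effector genes outside the gate. The classes were split by GZMH, GNLY and GZMB, so differences in genes that go with these transcripts are not independent of the gates. This holds for the granule and cytotoxicity list above as well. HOPX, a transcriptional regulator of effector lymphocytes, stood at 4.77, 10.7 and 19.0 CPM in members and at 234, 195 and 683 CPM in cytotoxic cells, with ratios of -5.52, -4.15 and -5.16. PRF1, which encodes perforin, gave ratios of -2.72, -2.93 and -3.32. The chemokine gene CCL4 gave -2.54, -5.65 and -5.33 and the inhibitory receptor gene LAG3 -2.43, -3.69 and -5.27. In both, the naïve library stood nearest to 0. LGALS1, PTMS, CCDC50 and PCLAF were the other genes of the lowest 8. Of 9 cell cycle genes 8 were lower, with a median of -1.36, and of 7 MHC class II genes 6 were lower, with a median of -2.40.

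Granule-negative CD8 T cells were the nearest class. Only 44 of 4337 genes were higher in members (1.01%) and 38 lower (0.876%). EOMES, a T-box factor of effector and memory CD8 T cells, stood at 119, 87.0 and 62.1 CPM in members against 19.3, 10.4 and 17.3 CPM, which gave ratios of 2.58, 3.02 and 1.82. GZMA, which encodes granzyme A, stood at 933, 1143 and 1262 CPM against 319, 353 and 270 CPM, with ratios of 1.55, 1.69 and 2.22. NKG7, a granule membrane protein gene, gave 1.60, 1.74 and 1.06, and GZMM, which encodes granzyme M, 1.41, 1.78 and 1.11. LYAR, GPR183, DPP4 and STAG3 were also among the highest 8. In all, 3 of 11 granule and cytotoxicity genes and 4 of 17 naïve and memory genes were higher and none lower, with medians of 0.11 and 0.44. Of the annexin, S100 and galectin genes, 6 of 13 were lower and none higher, with a median of -0.60. Among the lowest 8 genes, FUT7, a fucosyltransferase needed for selectin ligands, gave -2.07, -2.45 and -2.68, and ITGB1, the beta chain of many adhesion receptors, -1.56, -2.13 and -1.34.

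**Figure D2:**
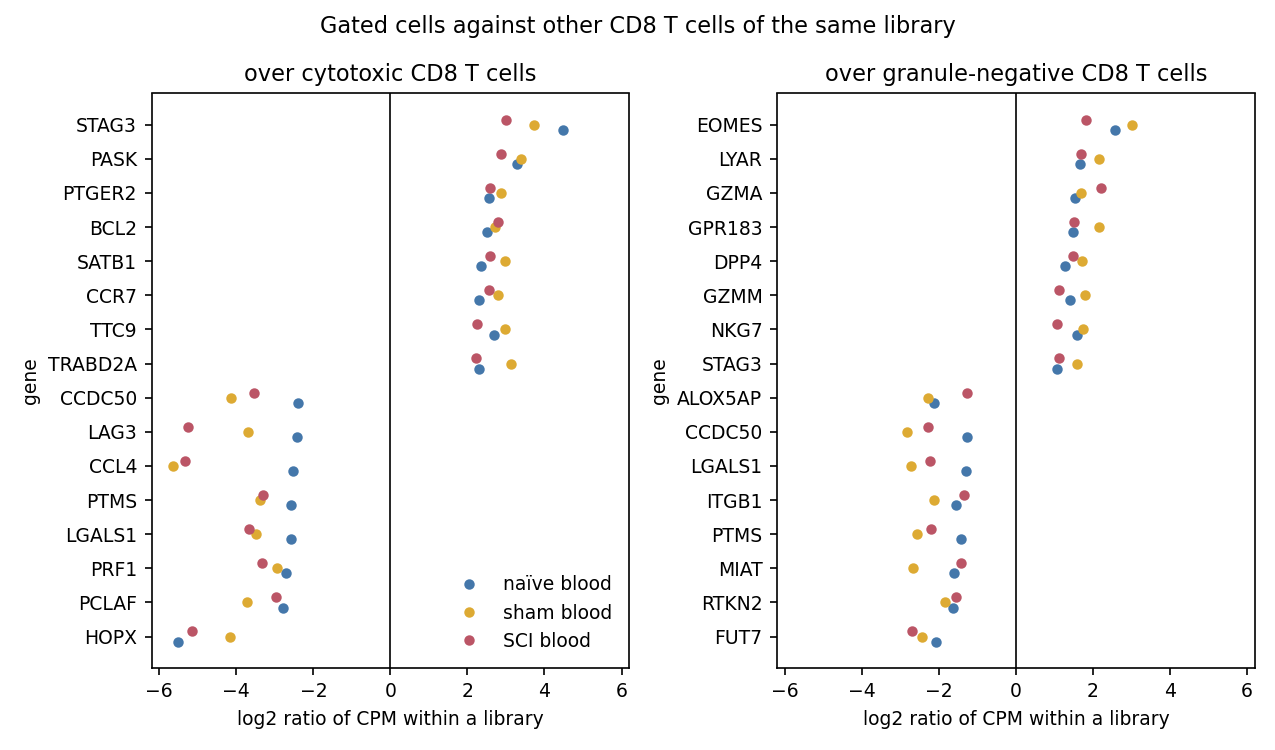
Log2 ratio of CPM in gated cells over cytotoxic CD8 T cells (left) and over granule-negative CD8 T cells (right) for the 8 highest and 8 lowest genes of each comparison (y axis), with 1 point per blood library. Every gene shown lay on the same side of 0 in naïve, sham and SCI blood, as the rule that picked it required, and HOPX was lowest against cytotoxic cells (-5.52, -4.15 and -5.16).

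Against CD4 T cells, 340 of 6590 genes were higher (5.16%) and 393 lower (5.96%). Higher genes included CRTAM, a surface receptor of activated CD8 T cells, with ratios of 6.45, 6.73 and 7.05, and CCL5, a chemokine of memory and effector CD8 T cells, with 6.76, 6.58 and 5.31. These ratios rest on low levels in CD4 T cells, at most 0.894 CPM for CRTAM and 29.9 CPM for CCL5. Of 11 granule and cytotoxicity genes 4 were higher and none lower, and of 19 naïve and memory genes 10 were higher and 2 lower. Of 16 cell cycle genes, 12 were lower with a median of -1.52, and of 12 genes of the TNF receptor family and costimulation 8 were lower with a median of -1.29. CD40LG, the helper signal to B cells, stood at 10.2, 6.22 and 6.90 CPM in members against 129, 130 and 128 CPM.

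The comparison of SCI with sham blood sets surgery with spinal cord damage beside surgery alone. Cord damage, host sex and the library cannot be told apart in it. Type I interferon genes were lower in members of SCI blood, with 18 of 35 past 1.5-fold and none higher, against 1.29% lower and 1.18% higher over all 6840 genes. The median ratio of the list was -0.59, against -0.024 over all genes, and 34 of the 35 genes lay below 0. Under UMIs per cell, which moved the median of all genes to -0.25, the list had a median of -0.82, and over all alternatives the median lay between -0.82 and -0.55. Counts of genes past the fold depended on scaling. They were 81 higher and 88 lower as given, 56 and 132 with CPM over all human genes, 103 and 66 with TMM factors, and 23 and 473 as UMIs per cell.

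Single genes of the list showed SCI blood lowest of the 3 libraries. IFIT1, an RNA-binding antiviral effector, stood at 90.7, 121 and 37.4 CPM in naïve, sham and SCI blood, with a ratio of SCI to sham of -1.69 (-2.02 to -1.37). RSAD2, which encodes viperin, stood at 118, 168 and 56.6 CPM (-1.57, -1.83 to -1.30). MX1, a GTPase that blocks viral replication, stood at 535, 571 and 262 CPM (-1.13, -1.26 to -0.99). Sham and naïve members lay closer to each other than to SCI members for these genes on the log scale. MX1 was found in 64.7%, 74.1% and 42.0% of members, and after thinning in 27.2% (23.5 to 31.2), 27.3% (23.4 to 31.5) and 14.5% (12.5 to 16.7), whereas B cells, which also express it, gave 44.6%, 51.0% and 32.3% after thinning. The difference was thus seen in the share of cells as well as in the sum. IFI44L stood at 324, 552 and 214 CPM (-1.37), XAF1, an apoptosis regulator, at 486, 561 and 292 CPM (-0.94), and ISG15, a ubiquitin-like modifier, at 1586, 1481 and 791 CPM (-0.91). IFITM2 (0.12) was the one gene of the list above 0. CMPK2 (-1.14) and RTP4 (-1.04), 2 interferon-induced genes that were not on the list, were among the 8 lowest genes of the comparison by the naming rule, and IFI44 (-0.99) completed them.

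**Figure D3:**
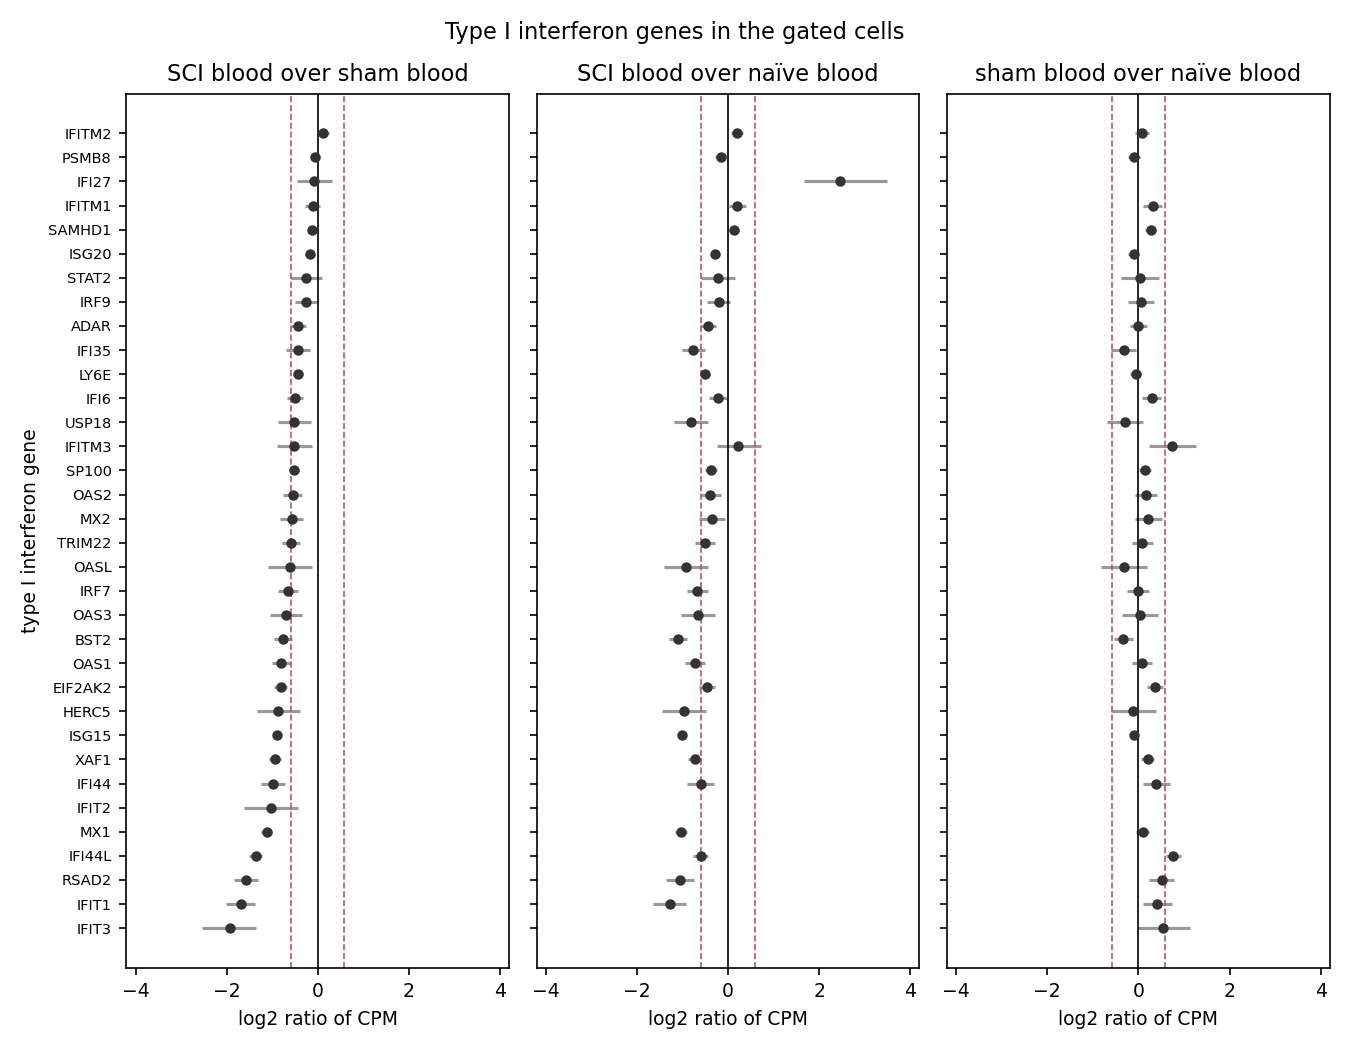
Log2 ratio of CPM (x axis) for type I interferon genes of the list (y axis) in the gated cells, for SCI over sham, SCI over naïve and sham over naïve blood. Points are ratios, bars are 95% intervals for counting error only and dashed lines mark 1.5-fold; in SCI over sham blood 17 of the 34 genes drawn lay below the lower line and none above the upper, whereas in sham over naïve blood none lay below it.

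The same list had an SCI to naïve median of -0.51, with 15 of 33 genes lower and 1 higher (IFI27). Its sham to naïve median was 0.083, with none lower and 2 higher (IFI44L and IFITM3), or 0.48 with 13 higher when counted as UMIs per cell. IFI27 stood at 8.18, 49.2 and 46.6 CPM, in 2, 15 and 35 members. Summed over the list, members of naïve, sham and SCI blood held 10159, 10903 and 7383 CPM, and the median member held 9576, 9866 and 6472 CPM.

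Interferon genes were also lower in SCI blood in the other classes. The list summed to 9901, 10790 and 8190 CPM in cytotoxic CD8 T cells, to 9808, 10600 and 7765 CPM in granule-negative CD8 T cells, to 10440, 11490 and 7890 CPM in CD4 T cells and to 11898, 13539 and 9974 CPM in B cells. SCI was the lowest of the 3 libraries in each class. The SCI to sham medians were -0.51 (12 of 29 genes lower), -0.53 (16 of 34), -0.59 (19 of 35) and -0.50 (10 of 34) in these classes, beside -0.59 in members. Over all genes tested in the same classes, 3.31%, 2.56%, 2.21% and 1.76% were lower. The classes come from the same libraries, and whether the size of the difference depended on the class was not tested.

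**Figure D4:**
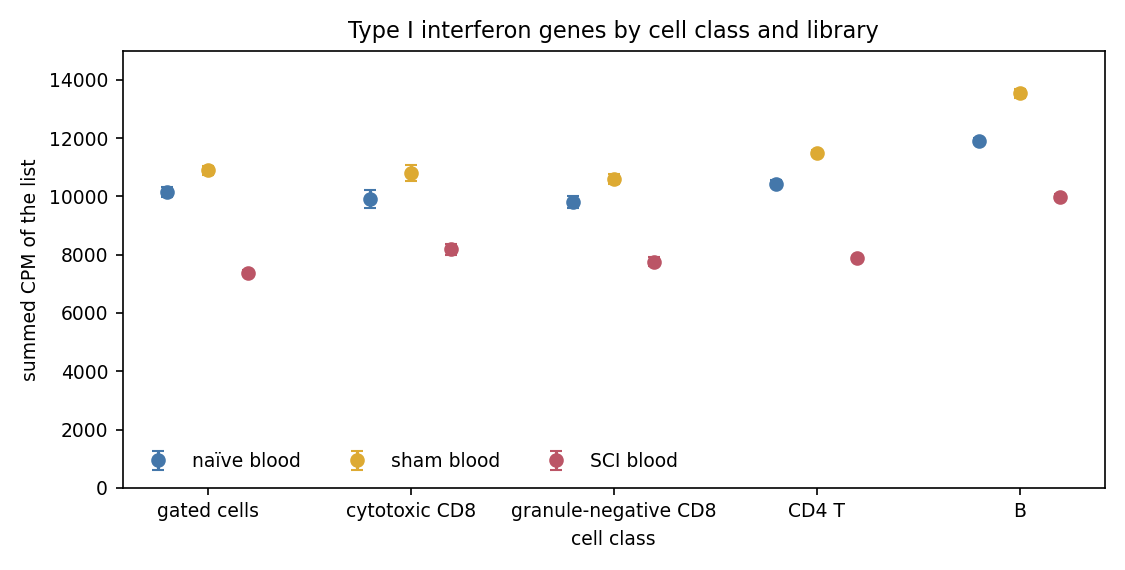
Summed CPM of the 35 type I interferon genes (y axis) in gated cells and 4 other classes (x axis) of each blood library, with exact Poisson 95% intervals. In every class the SCI library was lowest, for example 7383 CPM in gated cells against 10903 in sham blood.

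In members of SCI blood 81 of 6840 genes were higher than in sham blood (1.18%), beside 88 lower (1.29%). The largest ratios, those of CLC and HLA-DRA, came mostly from single cells. CLC, an eosinophil and basophil lectin, had the highest ratio (3.18), but 363 of its 364 UMIs in SCI blood came from 1 cell, and without the top cell of each library the ratio was -2.56. HLA-DRA (1.69) and HLA-DPA1 (0.98), MHC class II genes, owed 343 and 106 UMIs to 1 SCI cell that also held 143 of LYZ, a monocyte gene. Without top cells their ratios were -0.026 and 0.21. TIMP1, an inhibitor of matrix proteases, was by contrast widely spread. It stood at 81.1, 96.6 and 177 CPM in naïve, sham and SCI blood (0.87, 0.63 to 1.13) and was found in 14.0%, 23.0% and 35.3% of members, or 4.16%, 4.31% and 9.63% after thinning, beside 5.83%, 3.19% and 3.64% of thinned B cells. FCER1G, a signalling adaptor shared by NK and innate-like T cells, stood at 111, 125 and 198 CPM (0.66, 0.44 to 0.88), while TYROBP, a like adaptor of NK and myeloid cells, had a UMI in only 3, 2 and 3 members. KLRG1, an inhibitory receptor of experienced T cells, stood at 84.8 CPM in sham and 129 CPM in SCI blood (0.60, 0.34 to 0.88). NCR3, which encodes the activating receptor NKp30, stood at 25.9, 26.6 and 43.4 CPM (0.70, 0.23 to 1.21), and the gamma chain constant gene TRGC1 at 48.4, 31.7 and 63.5 CPM (1.00, 0.58 to 1.46). For TRGC1 the naïve library lay nearer to SCI than to sham blood. FAM118A (1.11), SKAP2 (0.93), an adaptor of adhesion signalling, and LST1 (0.84) completed the 8 highest.

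In SCI against sham blood 1.18% of all 6840 genes were higher and 1.29% lower, so short lists with none past the fold are near that share. No gene of several lists passed the fold in this comparison. This held for 19 naïve and memory genes (median -0.056), 25 genes of T cell receptor signalling (-0.019) and 17 of MHC class I presentation (-0.076). It held for 11 granule and cytotoxicity genes (-0.072) and for 16 immediate early and dissociation genes, a list with heat shock genes (0.030). The same was true of 14 glycolysis genes (0.050) and 15 chemokine receptor and homing genes (0.039). All 13 annexin, S100 and galectin genes lay above 0 without reaching the fold, with a median of 0.27 that was 0.038 when counted as UMIs per cell. ANXA1 stood at 2079, 2186 and 2631 CPM (0.27) and S100A4 at 3391, 2633 and 3329 CPM (0.34). MKI67, a proliferation marker, was lower at 57.9, 39.6 and 11.2 CPM (-1.81), and its UMIs came from 22, 17 and 6 members.

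The SCI to naïve and sham to naïve comparisons ask what surgery with or without cord damage changes. The paper describes anaesthesia, the painkiller buprenorphine and the antibiotic gentamycin as part of surgery and its care. Surgery, these drugs and the library thus cannot be told apart here. Both comparisons use the naïve library, so their values are given side by side. Against naïve blood, 130 of 6709 genes were higher in SCI blood (1.94%) and 260 lower (3.88%), and 88 of 5407 were higher in sham blood (1.63%) and 135 lower (2.5%). Scaling moved these splits to 81 higher and 432 lower with CPM over all human genes, 202 and 150 with TMM factors and 289 and 119 as UMIs per cell in SCI blood, and to 59 and 172, 120 and 108, and 969 and 33 in sham blood. UMIs per cell shifted the median of all genes to 0.11 and 0.37, from -0.053 and -0.020.

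Naïve members held more of several effector genes, but not of GZMA. It stood at 933, 1143 and 1262 CPM in naïve, sham and SCI blood. CST7, which encodes the granule cystatin F, stood at 308, 83.6 and 65.8 CPM in naïve, sham and SCI blood, with ratios to naïve of -1.88 (-2.16 to -1.61) in sham and -2.22 (-2.46 to -1.99) in SCI blood. PRF1 stood at 102, 52.0 and 39.4 CPM (-0.97 and -1.38) and NKG7 at 876, 541 and 509 CPM (-0.70 and -0.78). Both operated libraries lay below the naïve library for CST7, PRF1 and NKG7. TIGIT, an inhibitory receptor, stood at 180, 38.4 and 27.9 CPM (-2.22 and -2.69) in 94, 31 and 41 members, or 7.94% (5.78 to 10.6), 1.44% (0.58 to 2.94) and 0.98% (0.49 to 1.75) after thinning, against at most 0.531% of thinned B cells. FGFBP2, a secreted protein gene of cytotoxic lymphocytes, stood at 61.3, 3.39 and 3.45 CPM (-4.10 in SCI blood), in 37, 4 and 8 members. The transcription factor genes ZEB2 (-1.56), BATF (-1.16), EOMES (-0.93) and IKZF2 (-0.75) were lower in SCI than in naïve blood as well. Of 11 granule and cytotoxicity genes 4 were lower in each comparison, with medians of -0.51 in SCI and -0.40 in sham blood. None was higher by the fold, and 2 lay above 0 in each. Over the alternatives the medians ranged from -0.61 to -0.34 in SCI and from -0.54 to -0.011 in sham blood. Between 2 and 6 genes were lower in SCI and between 1 and 5 in sham blood, and at most 1 was higher. Summed gamma delta markers (658, 397 and 465 CPM) and cytotoxic or NK markers outside the gate (412, 237 and 314 CPM) were also highest in naïve members, and their part in these values was not tested. Of 14 T cell transcription factors 6 were lower in SCI blood (-0.41) and of 11 tested 1 in sham blood (-0.23).

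**Figure D5:**
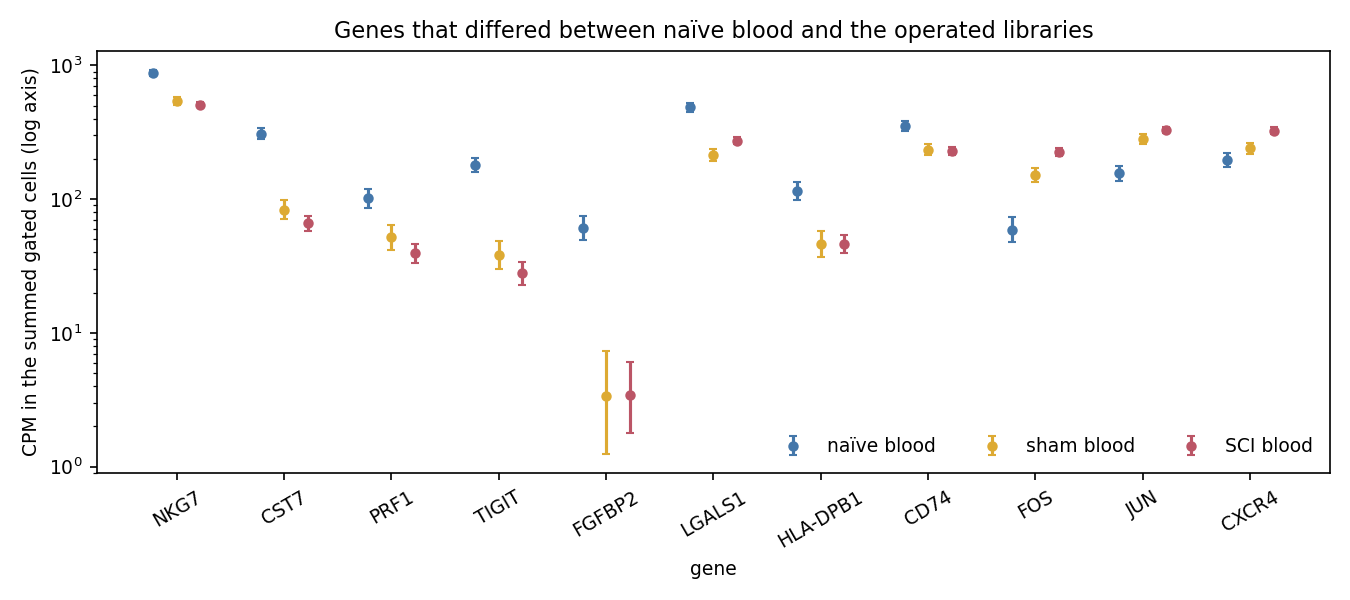
CPM on a log axis (y axis) of 11 genes (x axis) in the summed gated cells of naïve, sham and SCI blood, chosen after their values were seen, with exact Poisson 95% intervals. CST7 (308, 83.6 and 65.8 CPM) and TIGIT (180, 38.4 and 27.9 CPM) were lower and FOS (59.3, 151 and 227 CPM) higher in both operated libraries.

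MHC class II genes, which activated human T cells can express, were also highest in naïve blood. Of 8 genes tested, 7 were lower in SCI than in naïve blood (median -0.92) and 6 in sham than in naïve blood (-1.40), and none was higher under any scaling. HLA-DPB1 stood at 116, 46.3 and 46.3 CPM, in 83, 47 and 51 members, and CD74, the invariant chain that escorts class II molecules, at 351, 235 and 230 CPM. B cell, plasma cell and monocyte marker sums were also highest in naïve members (406, 1202 and 443 CPM, beside 117, 224 and 27.1 CPM in sham blood), and their part in these values was not tested. The share of members with a UMI of these lists, immunoglobulin genes aside, was ordered otherwise. In naïve, sham and SCI blood it was 20.2%, 26.9% and 29.6% for B cell markers. It was 42.6%, 48.3% and 50.8% for plasma cell and 6.42%, 8.83% and 5.17% for monocyte markers. These shares were not thinned, and naïve members had the lowest median depth, at 3552 UMIs against 5037 and 4476.5. Depth and the carriage of such transcripts thus cannot be told apart in them. Without the top cell of each gene the SCI to naïve median was -1.92, with all 8 tested genes lower. JCHAIN, a plasma cell gene (-6.05 in sham blood), S100A9 (-4.45) and S100A8 (-4.30), both monocyte genes, and CCL4 (-2.25) led the lower genes in sham against naïve blood but rested on few cells, with 124 of the JCHAIN UMIs, 193 of the S100A9 UMIs, 82 of the S100A8 UMIs and 32 of the CCL4 UMIs each in 1 naïve member. Their direction turned under other settings, to 0.20 for S100A9 with Scrublet, to 1.27 for S100A9, 1.42 for S100A8 and 0.49 for CCL4 without the condition on GZMH, GNLY and GZMB, and to 0.72 for S100A9 and 3.04 for CCL4 with the thinned gate. In the other classes, the sham to naïve and SCI to naïve medians of the class II list were 0.020 and 0.21 in cytotoxic CD8 T cells, 0.64 and -0.66 in granule-negative CD8 T cells, 0.14 and -0.40 in CD4 T cells and 0.12 and 0.10 in B cells. For the granule list they were -0.64 and -0.19 in cytotoxic CD8 T cells, -0.14 and -0.24 in granule-negative CD8 T cells and -0.063 and -0.064 in CD4 T cells. Whether any class differed from the members in these values was not tested.

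Several of these transcripts were found together in the same members, a pattern chosen after its values were seen. Among the 94 naïve members with a TIGIT UMI, 86.2% (77.5 to 92.4) also had CST7, 55.3% (44.7 to 65.6) HLA-DPB1 and 61.7% (51.1 to 71.5) LGALS1, a galectin gene, against 19.3%, 7.11% and 17.2% of the 436 without. TIGIT-positive members were deeper, with a median of 4655.5 UMIs against 3441, and HLA-DPB1 is a B cell gene as well, found in 81.9% of thinned B cells of that library. After thinning, 42 naïve members had TIGIT, and CST7 was found in 42.9% (27.7 to 59.0) of them against 13.1% (10.3 to 16.5) of the rest, HLA-DPB1 in 28.6% against 3.90% and LGALS1 in 38.1% against 11.1%. In SCI blood, 41 members had TIGIT as deposited (median 5525 UMIs against 4466), of which 73.2% had CST7 and 61.0% HLA-DPB1, against 9.62% and 2.41% of the others. In sham blood there were 31 (5625 against 5028 UMIs), of which 48.4% had CST7 and 54.8% HLA-DPB1, against 14.7% and 6.58%. Only 11 SCI and 7 sham members had TIGIT after thinning, with CST7 in 27.3% (6.02 to 61.0) and 14.3% (0.361 to 57.9) of them, against 3.06% and 4.79% of the others. In the sham library the difference was not detectable at that depth. TIGIT-positive members were 17.7% of all members in naïve and 3.65% in SCI blood.

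Several immediate early genes were higher in both operated libraries than in naïve blood. FOS, a component of the AP-1 transcription factor, stood at 59.3, 151 and 227 CPM in naïve, sham and SCI blood, with ratios to naïve of 1.35 (1.00 to 1.72) and 1.93 (1.61 to 2.27), and was found in 4.16%, 8.42% and 12.8% of thinned members beside 3.43%, 4.78% and 6.38% of thinned B cells. JUN, its partner, stood at 156, 281 and 329 CPM (0.85 and 1.07) and FOSB at 33.4, 67.3 and 68.4 CPM (1.00 and 1.02). Of 16 genes of the immediate early and dissociation list 5 were higher in each comparison and 1 lower, DUSP2. The medians were 0.41 in sham and 0.36 in SCI blood, and the part of cell handling in these values was not tested. FOS was higher in SCI than in naïve blood in granule-negative CD8 T cells (0.95), CD4 T cells (1.66) and B cells (0.85) too.

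Of 15 chemokine receptor and homing genes, 2 were higher in SCI than in naïve blood (CXCR4 and PTGER2) and none in sham than in naïve blood. CXCR4, the receptor for CXCL12 and a glucocorticoid-responsive gene, stood at 196, 240 and 326 CPM, 0.73 (0.55 to 0.93) higher in SCI than in naïve blood. PTGER2 stood at 179, 264 and 311 CPM (0.79), LRRN3, a gene of naïve CD8 T cells, at 161, 196 and 253 CPM (0.65), and TXNIP, a brake on glucose uptake, at 1261, 1844 and 2094 CPM (0.73). For these 4 genes sham blood lay between the other libraries. Of 4 genes of the adenosine pathway tested, 1 was higher in SCI (NT5E) and 2 in sham blood (NT5E and ADK, adenosine kinase). NT5E had its highest level in sham blood, at 41.6, 83.6 and 64.4 CPM, with ratios to naïve of 1.00 (0.57 to 1.46) in sham and 0.62 (0.22 to 1.06) in SCI blood. C1orf162, a membrane protein gene, gave 1.03 and 1.34, and VAMP5, a vesicle fusion gene, 0.92 and 1.06. SOCS2, an inhibitor of cytokine signalling (1.05, or 0.81 without its top cell), CHMP7 (0.93), BOD1 (0.92) and AL031777.3 (0.95) were among the highest of sham over naïve blood. CD28, the main costimulatory receptor, was lower in both, at 120, 75.7 and 64.1 CPM (-0.66 and -0.90). Of 13 annexin, S100 and galectin genes, 3 were lower in each comparison (ANXA5, ANXA2 and LGALS1), with medians of -0.36 in sham and -0.11 in SCI blood that were 0.027 and 0.058 as UMIs per cell. No gene of MHC class I presentation (17 tested) or of the actin and migration list (14 tested) passed the fold in either comparison. Over all genes 1.94% were higher and 3.88% lower in SCI blood, and 1.63% and 2.5% in sham blood. For lists this short, none past the fold is near those shares.

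Members with and without NT5E showed no difference that recurred in all libraries at this depth. After thinning, 17, 28 and 50 members of naïve, sham and SCI blood had an NT5E UMI. None of the 8 highest genes, the 8 lowest genes and the 93 listed genes tested between the groups had an interval clear of 0 in all 3 libraries. With so few positive cells, moderate differences were not detectable. GZMA varied with the GZMK level that the gate had used. It was found after thinning in 20.8%, 35.5% and 46.5% of naïve members with 1, 2 to 5, and at least 6 GZMK UMIs, and in 31.5%, 40.4% and 52.2% of SCI members, highest in the last group in each. In sham blood the corresponding shares were 36.8%, 34.1% and 50.7%, where the lowest group held 19 cells.

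Only 6 members came from the SCI cord, with 50933 human UMIs between them, so the cord values are a description of these cells. Genes were picked after their values were seen. GZMK stood at 3561 CPM against 3081 CPM in SCI blood, and all 6 cells also had GZMA and NKG7. FOS stood at 1887 CPM (62 UMIs in 6 cells) against 227 CPM in SCI blood, a ratio of 3.07 (2.66 to 3.43), and JUNB, another AP-1 component, at 1582 against 241 CPM (2.73), with 25 of its 52 UMIs in 1 cell. The AP-1 gene JUND was higher too (1.08, 0.68 to 1.42), while JUN (0.52, -0.37 to 1.20) and FOSB (-0.59, with 1 UMI) had intervals that included 0. CD69, a tissue retention and activation receptor, stood at 335 against 74.5 CPM (2.23, 1.15 to 3.03) and CXCR4 at 1035 against 326 CPM (1.69, 1.13 to 2.16). CRIP1, a LIM domain gene, stood at 3469 against 981 CPM (1.83), with 47 of its 114 UMIs in 1 cell. IL7R stood lower, at 578 against 1635 CPM (-1.46, -2.23 to -0.86), with 11 of its 19 UMIs in 1 cell. LGALS1 had no UMI in the cord members, against 273 CPM in SCI blood. Such an absence allows up to 91.3 CPM by 3 counts, or 112 CPM as the upper end of the two-sided 95% interval. Cord cells, unlike blood cells, went through papain digestion and magnetic enrichment, so tissue and preparation cannot be told apart.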

How the data were processed

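Human CD45+ cells of huNSG-SGM3 mice were sequenced with a 3' kit in 1 run, in 4 libraries. The authors made UMI counts with CellRanger (version 3.1.0, per the labels) against human and mouse genomes held in one reference (builds hg38 and mm10), and deposited these counts per gene and barcode without normalisation. Barcodes with over 50% human UMIs and at least 500 human genes were kept, and no doublets were removed, with a Scrublet filter as an alternative. Members were gated on these counts. Members, gene lists and comparisons were chosen with earlier results of these data known. Counts were summed per library and class and scaled to CPM over human genes without ribosomal, mitochondrial and donor-sex genes. Log2 ratios had 0.5 added to each count, with conditional binomial 95% intervals, and shares had exact binomial ones. Genes needed 100 counts over both libraries. Named genes are the 8 highest and 8 lowest ratios per comparison with at least 50 CPM in 1 library, plus genes of 21 lists and 10 marker lists. A gene whose presence depends on haplotype was left unnamed, and 1 listed gene is counted in its list but not reported here. In place of replicates, 18 planned and 3 later alternatives were run. For shares of cells with a UMI, cells were thinned to 1000 human UMIs. Summed over members, depth was 2130349 UMIs in the naïve, 2643722 in the sham, 5405805 in the SCI blood and 50933 in the SCI cord library. The ratio code was tested on simulated data. Computation used scipy 1.17.1 with numpy 2.4.6 for intervals, scanpy 1.11.5 for Scrublet, pandas 2.3.3 and matplotlib 3.10.9 under Python 3.11.15, with TMM factors taken from edgeR 4.0.16 (R 4.3.3).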

Additional observations from a re-analysis of the deposited data

How the results depend on the processing

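With 1 library per condition nothing here measures the spread between animals. The members' share of human cells in the naïve, sham, SCI blood and SCI cord libraries was 3.36%, 3.41%, 6.49% and 1.57% with the gate on thinned counts and 9.50%, 11.6%, 20.4% and 11.8% without the condition on GZMH, GNLY and GZMB. It was 6.25%, 8.56% and 15.0% in the blood libraries with CD8B required, and 7.30% in naïve and 16.8% in SCI blood with at least 2 GZMK UMIs. SCI stayed above sham and naïve blood in all of these. Counts of genes past the fold depended on the settings. For SCI over sham blood they were 23 higher and 473 lower as UMIs per cell, 491 and 525 with at least 20 counts, 3135 and 2844 with at least 1 count and 10 and 9 at a fold of 2. For SCI over naïve blood they were 70 and 110 with the thinned gate, 81 and 432 with CPM over all human genes, 202 and 150 with TMM factors, 289 and 119 as UMIs per cell, 589 and 894 with at least 20 counts, 1976 and 3292 with at least 1 count and 23 and 54 at a fold of 2. For sham over naïve blood they were 41 and 59 with the thinned gate, 969 and 33 as UMIs per cell, 517 and 726 with at least 20 counts, 2664 and 2993 with at least 1 count and 5 and 32 at a fold of 2.

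Among the named genes, the sign reversed for CLC, HLA-DRA, HLA-DPA1, S100A9, S100A8 and CCL4. For SCI over sham blood, CLC was -3.38 with the thinned gate, -4.70 with at least 2 GZMK UMIs, -4.68 with CD8B required, -4.72 with CD4 at 0, -2.57 with at most 2 monocyte, basophil and mast cell marker UMIs and -2.56 without top cells. HLA-DRA was -0.16 with CD4 at 0, -0.18 with few marker UMIs and -0.026 without top cells, and HLA-DPA1 was -0.10 as the mean of per-cell CPM. For SCI over naïve blood, CLC was -1.07 with the thinned gate, -2.01 with at least 2 GZMK UMIs, -2.06 with CD8B required, -1.98 with CD4 at 0, -2.00 with few marker UMIs and -1.25 without top cells. S100A9 was 1.87 with Scrublet, 0.28 with the thinned gate and 0.12 with CD4 at 0 as well as with few marker UMIs, and S100A8 was 1.61 with Scrublet. For sham over naïve blood, S100A9 was 0.20 with Scrublet, 0.72 with the thinned gate, 0.22 with CD4 at 0, 1.27 without the granule condition and 0.29 with few marker UMIs. S100A8 was 1.42 and CCL4 0.49 without the granule condition, and CCL4 was 3.04 with the thinned gate. The cause was not tested beyond what these settings remove. The settings on top cells, few marker UMIs and MKI67 with TOP2A at 0 were chosen after seeing the data. No paired analysis was possible because each group has 1 library.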
